A study of Mus musculus with 13 samples.

Results

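Of the 38 Hox genes named on the platform, 10 are described here: Hoxa2, Hoxa4, Hoxa5, Hoxa7, Hoxa13, Hoxc4, Hoxc8, Hoxc9, Hoxc10 and Hoxd8. They were taken by gene symbol from the platform annotation, as probes of the non-normalized signal table. The 10 genes are covered by 14 probes, out of 18524 genes named by at least 1 probe. All 10 genes had a probe whose signal stood above background, with a detection p-value below 0.05, on at least 3 of the 13 arrays. Hoxd8, on 3 arrays (NG2 tumor 1 and Nestin tumors 2 and 3), and Hoxc8 and Hoxc9, on 4, lay just inside that limit. Hoxa3, Hoxa9, Hoxb2, Hoxb3 and Hoxc6, none of whose probes was detected on more than 2 arrays, lay just outside it. Hoxd11 also passed and is not among the 10. Because the genes were chosen from results of these same arrays, their levels, differences and bounds are given as a description, with no test between groups.

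The arrays profiled high-grade gliomas of mice in which tamoxifen-inducible Cre removes tumor suppressor genes from cells that use either the Nestin promoter (Nestin-creERT2, active in neural stem and progenitor cells) or the NG2 promoter (NG2-creERTM, active in oligodendrocyte progenitors and pericytes). Which genes were deleted, and the strain and age, are not in the labels. Nestin-creERT2 driven tumors on 3 arrays and NG2-creERTM driven tumors, labelled as independent tumors, on 4 arrays were set against brain tissue from the matching position of control mice, with 3 control arrays for each model. The design text counts 5 NG2-creERTM tumors, and 1 was not analysed here. Tumors were taken once the mice had neurological symptoms. The groups are called Nestin tumor, NG2 tumor, Nestin control and NG2 control below.

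Hox genes encode homeodomain transcription factors that lie in clusters named A to D, and their order along a cluster follows the order in which they are used along the body from head to tail. In the developing nervous system they are expressed in the hindbrain and spinal cord, with low paralog numbers reaching furthest forward, while the forebrain and midbrain anterior to them are formed without them. Hox proteins bind DNA together with cofactors of the TALE family (PBX, MEIS and PKNOX). Retinoic acid induces the genes at the low-numbered end, and Polycomb complexes keep silent Hox genes closed.

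The promoters of 3 members that were high in tumors are shown, because the genes lie near each other in the A cluster of chromosome 6 and differ in their promoter sequence. Each sequence runs 5′ to 3′ on the gene's own strand, the minus strand, from 250 bases before to 50 bases after the start of the gene as annotated by RefSeq on GRCm38.p6. Capitals mark matches, on either strand, to the HOX-PBX core TGATNNAT and to the MEIS and PKNOX core TGACAG. The windows are chr6:52164782-52165081 for Hoxa2, chr6:52204538-52204837 for Hoxa5 and chr6:52218524-52218823 for Hoxa7.
Hoxa2: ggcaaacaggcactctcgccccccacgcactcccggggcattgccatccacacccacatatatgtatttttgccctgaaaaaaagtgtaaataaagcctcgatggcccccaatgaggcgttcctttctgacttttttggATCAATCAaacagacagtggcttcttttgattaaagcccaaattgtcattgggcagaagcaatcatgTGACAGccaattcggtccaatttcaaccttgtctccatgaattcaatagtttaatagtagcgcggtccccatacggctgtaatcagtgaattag
Hoxa5: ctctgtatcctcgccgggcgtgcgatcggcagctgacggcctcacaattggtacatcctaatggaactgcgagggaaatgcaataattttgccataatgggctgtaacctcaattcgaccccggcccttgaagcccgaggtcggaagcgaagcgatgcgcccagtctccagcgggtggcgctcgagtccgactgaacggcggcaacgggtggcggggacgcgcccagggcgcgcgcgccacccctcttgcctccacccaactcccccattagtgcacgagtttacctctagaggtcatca
Hoxa7: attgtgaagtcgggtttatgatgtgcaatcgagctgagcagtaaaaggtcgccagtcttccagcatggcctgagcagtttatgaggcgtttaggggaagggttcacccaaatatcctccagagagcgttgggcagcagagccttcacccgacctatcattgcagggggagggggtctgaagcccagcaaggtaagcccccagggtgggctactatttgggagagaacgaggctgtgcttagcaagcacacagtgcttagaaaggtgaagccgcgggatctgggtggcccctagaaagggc
A promoter was found for 6 of the 10 members among 32851 mouse promoters of the same length. The Hoxa2 window held 1 match to TGATNNAT, a motif present in 8.85% of all promoters, and 1 match to TGACAG, present in 19.2%. The motifs do not overlap there. Neither motif matched in the windows of Hoxa5 and Hoxa7, nor in those of Hoxa13, Hoxc4 and Hoxd8. The Hoxa5 window had 61.7% G and C and 29 CpG dinucleotides, an observed over expected CpG ratio of 1.02, which was at or above that of 95.1% of promoters. The Hoxa7 window, with 9 CpG dinucleotides and a ratio of 0.405, was close to the median promoter ratio of 0.384.

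Signals are given as log2 normalized levels. The lowest level of a detected probe lay between 5.29 and 5.53 on this scale, depending on the array. Between 43.46% and 47.52% of probes were detected on each array, with tumors and controls overlapping, and the median raw signal was 176 to 209 on tumor arrays and 117 to 142 on control arrays. Hybridization efficiency differs between probes, so levels are compared only within a probe. Where a probe of a member was not detected in 1 group, the change is given as a lower bound: the mean of the brighter group against the dimmer group's mean after each array of it was raised to at least its lowest detected signal. For other genes a log2 difference can include a group below background, unless a bound is given. The size of a bound depends on the background correction, as the values with other corrections below show. Each sample is a piece of tissue, so a lower level in a group can stand for fewer cells of a type or for less RNA per cell, which cannot be told apart here.

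Several Hox genes were detected on tumor arrays and not in control brain. Of the 10 members, 6 were detected on every Nestin tumor array and 4 on every NG2 tumor array. The counts were 2 on every Nestin control array and 2 on every NG2 control array. The share of all named genes detected on every array of a group was not computed, so these counts are a description only. On every Nestin tumor array and no Nestin control array, 5 members were detected (Hoxa2, Hoxa4, Hoxa5, Hoxa7 and Hoxc9), a pattern that 1.92% of all named genes had. In the NG2 model 2 members, Hoxa5 and Hoxa7, had that pattern against 1.16% of all named genes. The same 2 genes were the members detected on every tumor array and on no control array, as were 0.702% of all named genes. A further 3 members, Hoxa2, Hoxc9 and Hoxd8, were detected on some but not all tumor arrays and on no control array, a pattern of 4.63% of all named genes. Hoxa2, Hoxa5, Hoxa7, Hoxc9 and Hoxd8 reached the limit of 3 arrays through tumor arrays alone, so their pattern was partly fixed by the choice. All named genes include the 29.4% detected on no array. Nothing is therefore read from the contrast of these counts with the shares.

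**Figure D1:**
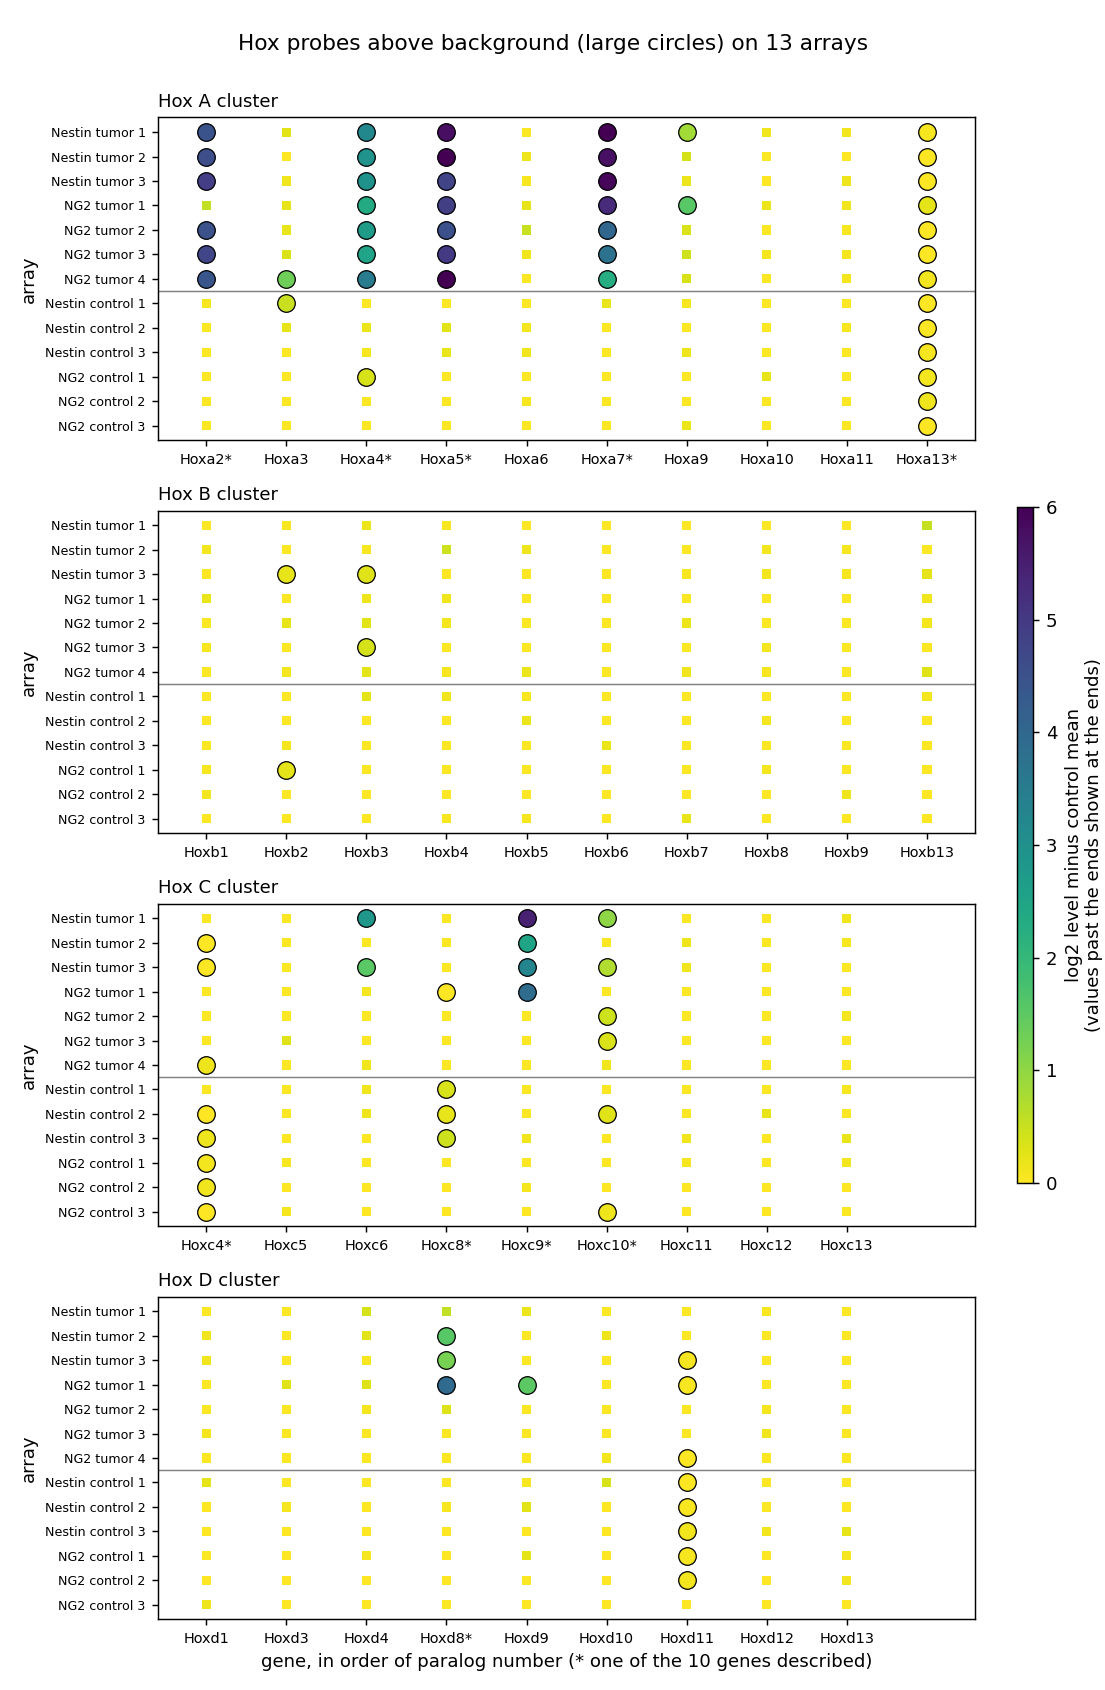
Every Hox gene named on the platform (x axis, in order of paralog number within clusters A to D) on each of the 13 arrays (y axis). A large circle marks detection of the gene's probe detected on most arrays, a small square its absence, and colour is the log2 level minus the mean of the 6 control arrays. Circles in dark colours fill the columns of Hoxa2, Hoxa4, Hoxa5 and Hoxa7 on tumor rows, except NG2 tumor 1 at Hoxa2, Hoxc9 has circles on 4 tumor rows, and the B cluster has almost no circles.

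Compared without regard to detection, 6 of the 10 members had every Nestin tumor above every Nestin control, where 31.1% of the 11927 genes tested did so, and 1, Hoxc8, had every tumor below, as did 27.8% of genes. In the NG2 model 4 members had every tumor above every control, against 27% of genes, and none had every tumor below, against 24.3%. The median difference of the members was 2.04 on the log2 scale in Nestin tumors and 1.01 in NG2 tumors, beside medians over all genes tested of 0.06 and 0.09. These comparisons helped choose the members, so nothing is read from the contrast with the background.

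Hoxa2, the Hox gene expressed furthest forward in the hindbrain, was at levels of 9.07, 9.17 and 9.52 on the 3 Nestin tumor arrays. The 3 Nestin controls were at 4.67, 4.63 and 4.57, none above background. The tumors were at least 14.3-fold higher (means 9.25 ± 0.24 and 4.63 ± 0.05, SD, n = 3 each). Among NG2 tumors, Hoxa2 was at 5.16, 9.09, 9.34 and 9.0, against 4.52, 4.57 and 4.63 in NG2 controls. NG2 tumor 1 was below background, and the other 3 were close to the Nestin tumors, so the bound of at least 6.85-fold over all 4 arrays joins unlike tumors, and it was 13.7-fold without NG2 tumor 1. Under other background corrections, chosen after the data were seen, the bounds were 6.85-fold with normexp and 4.35-fold with no correction in Nestin tumors, and 3.99-fold and 2.87-fold in NG2 tumors. A second Hoxa2 probe gave bounds of at least 11.1-fold and 6.14-fold. In NG2 tumor 1 it was at 5.38 and just short of detection, with a detection p-value of 0.0524, against 0.0908 for the first probe.

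Hoxa4, which is used from the posterior hindbrain backward, had the narrowest spread of the members high in tumors. Its levels were 8.26, 7.97 and 8.0 in Nestin tumors and 4.94, 5.24 and 5.13 in Nestin controls, at least 6.33-fold higher (3.35-fold with normexp and 2.35-fold with no correction). NG2 tumors were at 7.41, 7.78, 7.58 and 8.58, and NG2 controls at 5.43, 4.73 and 4.89. One of those controls, NG2 control 1, was just above background with a detection p-value of 0.047. The NG2 difference was 2.82 ± 0.28 on the log2 scale (SE), 7.06-fold, and tumors of both models overlapped.

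Hoxa5, a regulator of cervical and thoracic patterning, was at 10.47, 10.76 and 9.50 in Nestin tumors and between 4.70 and 4.96 in their controls, at least 28.4-fold higher. In NG2 tumors it was at 9.59, 9.24, 9.71 and 11.33, with controls between 4.48 and 4.61, at least 24.2-fold higher. The bounds were 13.1-fold and 11.1-fold with normexp and 7.95-fold and 6.81-fold with no correction. All 7 tumors were well separated from all 6 controls, and the highest Hoxa5 level belonged to NG2 tumor 4. The tumors of both models overlapped, with a difference of 0.28 ± 0.43 (SE).

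Hoxa7, used in the thoracic region, had the largest difference of the 10 members in Nestin tumors. Its raw signal was 3961, 1769 and 2341 on Nestin tumor arrays, 1718, 731, 575 and 307 on NG2 tumor arrays and between 107 and 134 on all control arrays. The normalized levels were 11.67, 10.40 and 10.56 in Nestin tumors, at least 44.1-fold above their controls, and 9.95, 8.70, 8.40 and 6.93 in NG2 tumors, at least 8.70-fold above theirs. With normexp the bounds were 20-fold and 4.49-fold, and with no correction 11.9-fold and 3.06-fold. Every Nestin tumor lay above every NG2 tumor, by 2.38 ± 0.52 on the log2 scale (SE). It was the single member whose used probe separated the models in that way, as 10% of all genes tested did in that direction. No slide held tumors of both models, so slide and model differ together. With slide as a block the Hoxa7 difference was 2.19 ± 1.16.

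Hoxa13, the last gene of the cluster and a regulator of distal limb and hindgut development, did not follow the others. Of its 3 probes, 1 was detected on all 13 arrays and the other 2 on none. The detected probe had means of 6.40 ± 0.16 in Nestin tumors, 6.46 ± 0.12 in Nestin controls, 6.5 ± 0.23 in NG2 tumors and 6.56 ± 0.15 in NG2 controls. Tumors differed from controls by -0.06 ± 0.22 and -0.06 ± 0.20 (SE), so all 4 groups overlapped. With arrays scaled to their medians these differences were 0.28 and 0.27.

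**Figure D2:**
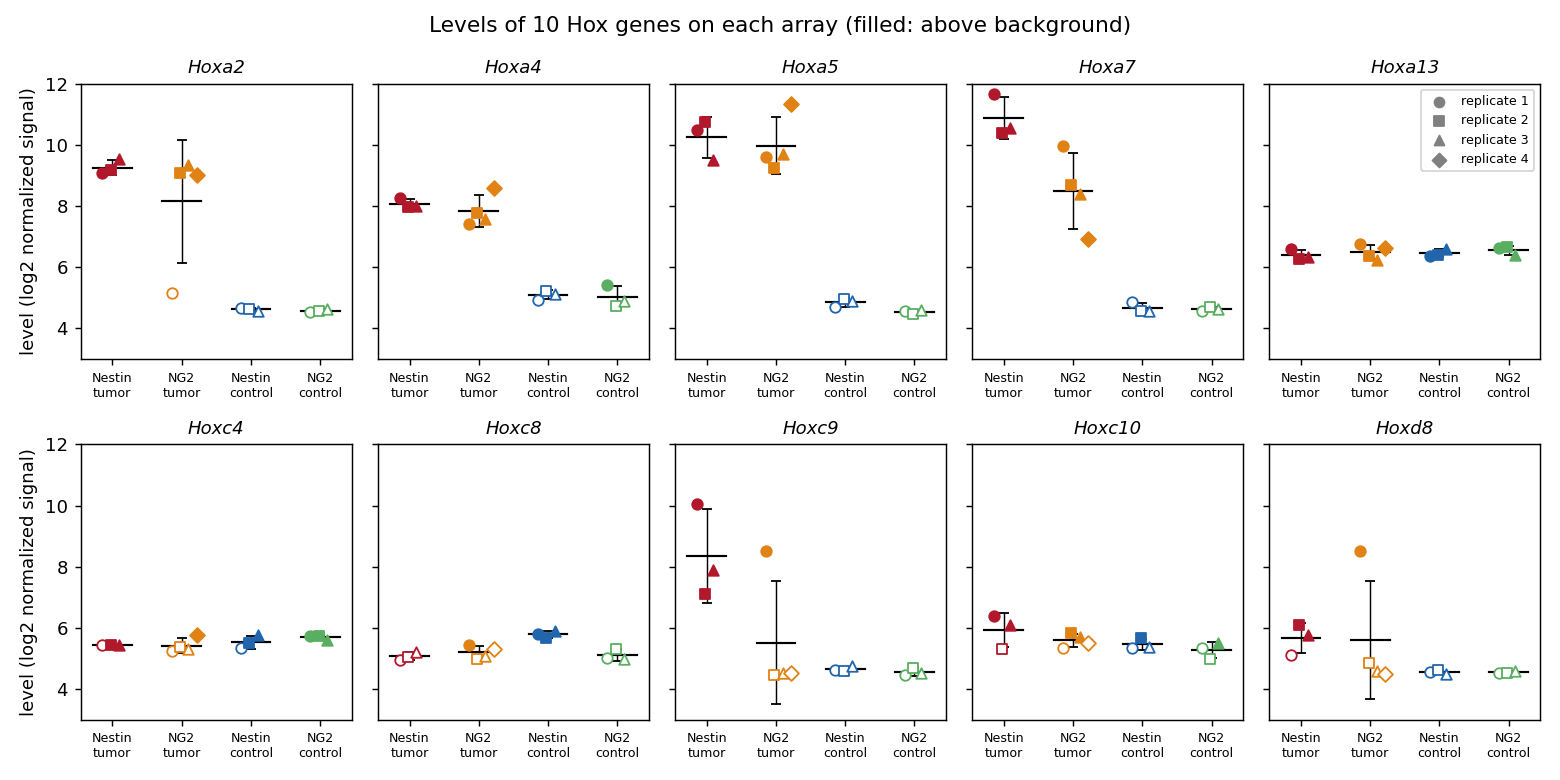
Log2 normalized level (y axis) of the 10 members on each array, by group (x axis), 1 panel a gene and 1 symbol a replicate. Filled symbols were above background, and bars are the group mean ± SD over 3 or 4 arrays. Hoxa2, Hoxa4, Hoxa5 and Hoxa7 have every tumor above every control, with NG2 tumor 1 below background at Hoxa2. Hoxa13 is level at about 6.5, and NG2 tumor 1 (circle) stands apart from the other NG2 tumors for Hoxa2, Hoxc9 and Hoxd8.

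In the C cluster the widest difference was at Hoxc9, a gene of the thoracic spinal cord. Its levels were 10.06, 7.11 and 7.89 in Nestin tumors and 4.64, 4.6 and 4.74 in Nestin controls, at least 7.66-fold higher. That bound was 4.24-fold without Nestin tumor 1, 11.8-fold without Nestin tumor 2, 4.1-fold with normexp and 2.87-fold with no correction. In the NG2 model, NG2 tumor 1 was at 8.52, while NG2 tumors 2, 3 and 4 were at 4.47, 4.54 and 4.53, within the range of the NG2 controls (4.46 to 4.69). The 4 tumors above background thus ran from 7.11 to 10.06, and no control was detected.

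Hoxc10, a gene of the lumbar region, was weak. Its used probe was at 6.38, 5.32 and 6.10 in Nestin tumors and at 5.34, 5.67 and 5.39 in their controls, and the groups overlapped. NG2 tumors ran from 5.36 to 5.83 and NG2 controls from 4.98 to 5.51, again overlapping. A second probe was detected in Nestin tumor 1 alone, at 6.51, the tumor that was also highest for the used probe.

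Hoxc4 and Hoxc8 did not share the pattern. Hoxc4, from the low-numbered end of the cluster, lay between 5.24 and 5.77 on all 13 arrays and was detected on 3 tumor and 5 control arrays, so its values were close to background throughout. Hoxc8, a gene of the lower cervical and thoracic cord, was detected on all 3 Nestin controls, at 5.79, 5.67 and 5.91, and on no Nestin tumor, at 4.95, 5.07 and 5.21. That made tumors at least 1.3-fold lower, and the bound did not hold at a detection limit of 0.01 (0.97). The NG2 controls, at 5.03, 5.33 and 4.99, were not detected, and of NG2 tumors only tumor 1, at 5.43, was.

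Hoxd8, the D cluster member, was highest in NG2 tumor 1, at 8.51, with the other NG2 tumors at 4.86, 4.59 and 4.48. Nestin tumors were at 5.12, 6.10 and 5.79, of which tumors 2 and 3 were detected, and all 6 controls lay between 4.51 and 4.61. Over the Nestin group the bound was at least 1.19-fold and over the NG2 group at least 1.18-fold. The NG2 bound rests on tumor 1, since the other 3 tumors were not detected and no bound above 1 was left without it.

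Along the A cluster, whose paralog numbers run in the same order as the gene positions, the genes high in tumors were not an unbroken run. Hoxa2, Hoxa4, Hoxa5 and Hoxa7 were high, while the probes of Hoxa3 were detected on 1 tumor and 1 control array only, and those of Hoxa6, Hoxa10 and Hoxa11 on no array. Hoxa9, at the high-numbered side, was detected by 1 probe in Nestin tumor 1 at 5.67 and in NG2 tumor 1 at 6.39, and by another in NG2 tumor 1 at 5.98. In the C cluster, Hoxc6 was detected in Nestin tumors 1 and 3, at 7.47 and 6.17, the pair of Nestin tumors with the highest Hoxc9 and Hoxc10. In the D cluster, both probes of Hoxd9 were detected in NG2 tumor 1 alone, at 6.12 and 6.48, next to Hoxd8. In the B cluster 8 of 10 genes were detected on no array, and Hoxb2 and Hoxb3 on 2 arrays each at levels close to background. Over all 38 genes, 21 were detected on no array, which 29.4% of all named genes were, and a gene without a detected probe may still be expressed below the reach of its probe. Hoxd11, detected on 8 arrays, had a level between 5.02 and 5.70 throughout and did not pass the test between tumors and controls in either model.

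Read by tumor, the detected Hox genes formed different sets. In NG2 tumor 1, Hoxa2 was not detected (5.16 and 5.38 on its 2 probes, above every control), and Hoxa7, Hoxc9 and Hoxd8 had the highest levels of the NG2 group, at least 23.8-fold, 8.87-fold and 8.78-fold above the controls. NG2 tumor 4 had the highest Hoxa5, at least 62.3-fold above its controls, and the lowest Hoxa7, at least 2.94-fold above them. In NG2 tumors 2 and 3 Hoxa2, Hoxa4, Hoxa5 and Hoxa7 were detected, and Hoxc8, Hoxc9 and Hoxd8 were not. Nestin tumors shared high Hoxa2, Hoxa4, Hoxa5, Hoxa7 and Hoxc9, and Nestin tumor 1 had the highest Hoxa7 and Hoxc9, at least 76.3-fold and 25.0-fold above its controls. The bounds for Hoxa7 in the 7 tumors ran from 2.94-fold to 76.3-fold against all controls of the model and from 2.86-fold to 77.5-fold against those on the same slide.

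**Figure D3:**
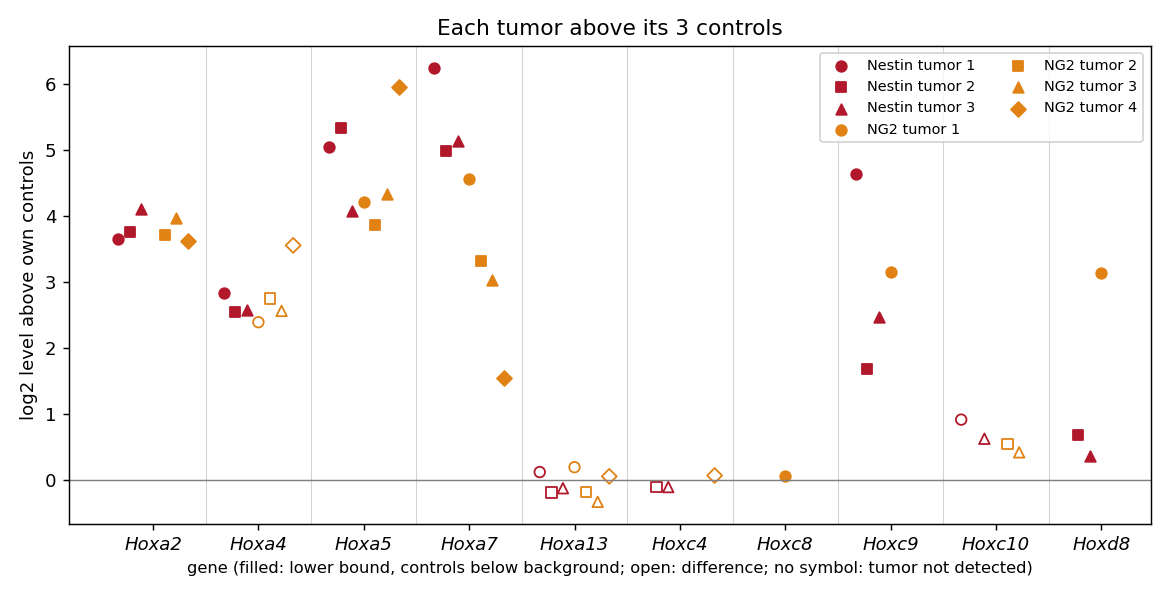
Log2 level of each tumor above the 3 controls of its model (y axis) for the 10 members (x axis), 1 symbol a tumor. Filled symbols are lower bounds, where no control was detected, open symbols are differences, and a tumor that was not detected has no symbol. Hoxa5 and Hoxa7 have 7 filled symbols each, NG2 tumor 1 has none at Hoxa2, and it is the single NG2 tumor with a symbol at Hoxc9 and Hoxd8.

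Tests apply to genes outside the members, with adjusted p-values from limma over all 11927 genes. The lists were chosen with earlier results of these data known. Of 8 TALE cofactors tested, 2 rose and 3 fell in Nestin tumors, while none rose and 5 fell in NG2 tumors. With arrays scaled to their medians, 2 were higher and 1 lower in Nestin tumors and 1 was higher and 3 lower in NG2 tumors, and the difference between the models was not tested. Of all genes tested, 46.3% changed in Nestin tumors (24.4% rose and 21.9% fell) and 50.7% in NG2 tumors (26.6% rose and 24.1% fell). With arrays scaled to their medians, the higher share of the calls went from 52.6% to 72.9% in Nestin tumors and from 52.4% to 71.8% in NG2 tumors. Meis1, which stabilizes HOX and PBX on DNA, rose in Nestin tumors by 4.12 ± 0.44 on the log2 scale (SE, limma adjusted p = 6.8e-06), from 7.18 ± 0.40 to 11.30 ± 1.08 (SD, n = 3 each). In the NG2 model it went the other way, from 10.55 ± 0.54 in controls to 9.51 ± 0.28 in tumors. That change of -1.04, with limma adjusted p = 0.0493, was lost under most alternatives, with adjusted p up to 0.402. The other Meis1 probe differed by 2.87 in Nestin and by -1.96 in NG2 tumors and was not tested alone. The controls themselves differed, Nestin minus NG2, by -3.37 ± 0.44 (limma adjusted p = 0.000526, and 0.00501 with slide as a block), where 3.47% of all genes differed. Nestin controls were also lower for Pbx3 (-2.91), Meis2 (-1.50) and Pknox1 (-1.09), with limma adjusted p = 0.000782, 0.0262 and 0.036, and 0.101, 0.0564 and 0.432 with slide as a block. For Meis1, Nestin tumors were 1.79 above NG2 tumors (limma adjusted p = 0.0162, where 8.99% of all genes differed), and with slide as a block 0.47 above (adjusted p = 0.89).

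Pknox1, another TALE partner of PBX, rose by 2.32 ± 0.26 in Nestin tumors (limma adjusted p = 1.19e-05), and in NG2 tumors its difference was 0.53 (adjusted p = 0.0876). Pbx2, which codes for a direct partner of HOX proteins, fell by 1.58 ± 0.27 in Nestin and fell by 1.24 ± 0.25 in NG2 tumors (limma adjusted p = 0.00034 and 0.00103). Pbx3 fell by 2.41 ± 0.38 in NG2 tumors and Meis2 fell by 2.89 ± 0.32 (limma adjusted p = 0.000126 and 5.84e-06). Pknox2 fell by 1.22 ± 0.32 in Nestin tumors (limma adjusted p = 0.00683), with 1 of its 5 probes going the other way, and the call was lost when arrays were scaled to their medians. The median difference of all TALE genes tested was -0.12 in Nestin tumors, and 0.28 when arrays were scaled to their medians, and -0.97 in NG2 tumors, and -0.48 on that scale.

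Of 10 listed regulators tied to hindbrain Hox genes, 7 were on the array and 3 could be tested. Of these 3, 2 rose in Nestin and 3 in NG2 tumors. The others on the array, Fgf8, Fgf3, Wnt8a and Zfp503, were detected on no array. Gbx2, a factor of the anterior hindbrain, rose by at least 18-fold in Nestin tumors, from undetected in Nestin controls (limma adjusted p = 3.79e-05). In NG2 tumors Gbx2 rose by 3.54 ± 0.59 on the log2 scale (adjusted p = 0.00021). Egr2 (Krox20), which is known to activate Hoxa2 in the hindbrain and also to respond quickly to stimulation and to act in myelinating Schwann cells, rose by 2.10 ± 0.61 and 2.81 ± 0.57 (limma adjusted p = 0.0117 and 0.000946). The Nestin call for Egr2 did not pass without Nestin tumor 3 (adjusted p = 0.0507) or without Nestin control 3 (adjusted p = 0.0584). Kat6a, an acetyltransferase that maintains Hox expression, rose by 0.66 in NG2 tumors (limma adjusted p = 0.0182). It did not pass without NG2 control 2 or without NG2 control 3 (adjusted p = 0.0623 and 0.101), nor with slide as a block (0.116). Of 2 ParaHox genes tested, from the sister group of the Hox clusters, 1 rose in both models. It was Gsx1, which rose from undetected in all controls by at least 6.98-fold in Nestin and at least 12.1-fold in NG2 tumors (limma adjusted p = 0.000126 and 5.85e-06). Gsx1 passed the filter through tumor arrays alone, so it had to be higher there, and its adjusted p-values are no test of direction. Gsx1 is also a factor of ventral forebrain and spinal progenitors.

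Of 12 retinoic acid pathway genes tested, 1 rose in Nestin tumors and 2 rose and 3 fell in NG2 tumors, where 46.3% and 50.7% of all genes changed. With arrays scaled to their medians, 3 were higher and 0 lower in Nestin tumors, and 4 higher and 2 lower in NG2 tumors. Aldh1a3, which makes retinoic acid, rose by at least 13.2-fold in Nestin tumors, from undetected in Nestin controls (limma adjusted p = 0.00056). In NG2 tumors it rose by 4.39 ± 0.72 on the log2 scale (adjusted p = 0.000184). Its other probe differed by 0.34 and 1.57 on that scale. Rarg, a receptor, rose by 1.38 in NG2 tumors, while Aldh1a2 fell by 1.33 (limma adjusted p = 0.0022 and 0.00243). The retinol transporter Stra6, not detected in NG2 tumors, was at least 1.42-fold lower there (limma adjusted p = 0.00914). The Stra6 call did not pass without NG2 control 3 (adjusted p = 0.0528).

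Of 18 Polycomb genes tested, 8 rose and 4 fell in Nestin tumors and 7 rose and 3 fell in NG2 tumors. Ezh2, the methyltransferase of proliferating cells, rose by 3.97 ± 0.25 and 3.92 ± 0.23 (limma adjusted p = 5.86e-08 and 1.75e-08), and Phf19, which recruits it, by 2.21 and 2.00. Cbx7, a reader of its mark, fell by 2.09 in Nestin and fell by 2.79 in NG2 tumors (limma adjusted p = 0.000146 and 4.32e-06), and Ezh1, the paralog of Ezh2 in resting cells, fell by 1.49 in Nestin tumors (adjusted p = 0.00385). Of 13 Trithorax and demethylase genes tested, 4 rose and 3 fell, and 3 rose and 3 fell. The demethylase Kdm6b rose by 1.86 in Nestin tumors (limma adjusted p = 8.35e-05), and Kmt2a (MLL1), which maintains Hox expression, fell by 0.95 and fell by 1.55 (adjusted p = 0.00329 and 3.44e-05). The Nestin call for Kmt2a did not pass when arrays were scaled to their medians, a setting that also moved Polycomb to 9 higher and 2 lower and to 11 higher and 2 lower, and Trithorax to 7 higher and 0 lower and to 6 higher and 1 lower.

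With each model taken alone, most genes next to the clusters did not pass the test. Of 10 tested, 2 rose and 1 fell in Nestin tumors and 3 rose and 1 fell in NG2 tumors. Skap2, the adaptor gene beside the A cluster, rose by 2.58 ± 0.24 and 2.84 ± 0.22 (limma adjusted p = 1.68e-06 and 2.02e-07), while Snx10, its neighbour, differed by -0.75 and -0.43. The Nestin call for Snx10 (limma adjusted p = 0.0263) was lost with arrays scaled to their medians (-0.23, adjusted p = 0.563). On that scale 4 genes of this list were higher and 0 lower in Nestin tumors, and 3 higher and 0 lower in NG2 tumors. Hnrnpa1, an RNA-binding protein gene beside the C cluster, rose by 1.11 and 1.92 (limma adjusted p = 0.00418 and 2.67e-05), and its other probe differed by 0.12 and 0.51. Atf2, near the D cluster, fell by 1.26 in NG2 tumors (limma adjusted p = 0.000437), a call lost with arrays scaled to their medians (adjusted p = 0.0717). Cbx5, another gene of this list, rose by 1.08 in NG2 tumors, with overlapping groups (limma adjusted p = 0.00848, and 0.0602 with slide as a block). Evx1 and Evx2, the homeobox genes at cluster ends, were not past the filter. Of 15 listed noncoding RNAs of the clusters, 1 was on the array and it was not detected.

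The labels name the tissue as brain and give no region, so position was checked with regional factors. In control brain, Tbr1 and Emx1 of cortical neurons and Dlx1 and Dlx2 of the ventral forebrain were detected on all arrays, except Emx1 on 1 NG2 control, and En1 and Irx2 of midbrain and hindbrain on none. Each list also held the reverse: En2 was detected on 6 of 6 control arrays and Irx3 on 5 of 6, and the forebrain factors Emx2, Six3, Dlx5 and Nkx2-1 on none. Controls of the models also differed: Nestin minus NG2 controls was 1.58 for Tbr1 and -2.43 for Dlx2 (limma adjusted p = 0.00167 and 0.00144; 0.0786 and 0.101 with slide as a block). Of 7 forebrain factors tested, 3 fell in Nestin and 5 in NG2 tumors, and none rose. Tbr1 fell by 5.49 ± 0.24 and fell by 4.63 ± 0.22 (limma adjusted p = 5.4e-09 and 3.23e-09), and Dlx1 fell by 6.0 ± 0.74 in NG2 tumors (adjusted p = 1.46e-05). Dlx1 and Otx1 remained detected in 3 of 3 Nestin tumors, and in 3 of 4 and 4 of 4 NG2 tumors.

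Of 18 hindbrain and spinal factors on the array, 8 passed the filter, of which 7 rose in Nestin and 6 in NG2 tumors, and none fell. En1, Irx1, Irx2, Irx5 and Lbx1 were detected on no control array and passed the filter through tumor arrays alone, so that they had to be higher there. Their part in these counts, and their adjusted p-values, are therefore description and no test of direction. En1, which patterns midbrain and anterior hindbrain, rose by at least 35.4-fold and 20.2-fold (limma adjusted p = 2.51e-08 and 2.34e-08). Irx2 rose by at least 23.3-fold and 24.0-fold (limma adjusted p = 1.1e-07 and 2.95e-08). En2 rose by 4.16 ± 0.30 and 4.53 ± 0.28 on the log2 scale, from detected levels in all controls (limma adjusted p = 1.85e-07 and 2.3e-08). The dorsal spinal factors Pax3 and Pax7 and the hindbrain factors Atoh1 and Ptf1a were detected on no array. Whether the tumors arose in the forebrain is not given by the labels, and the tumor arrays carried both kinds of regional factors.

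**Figure D4:**
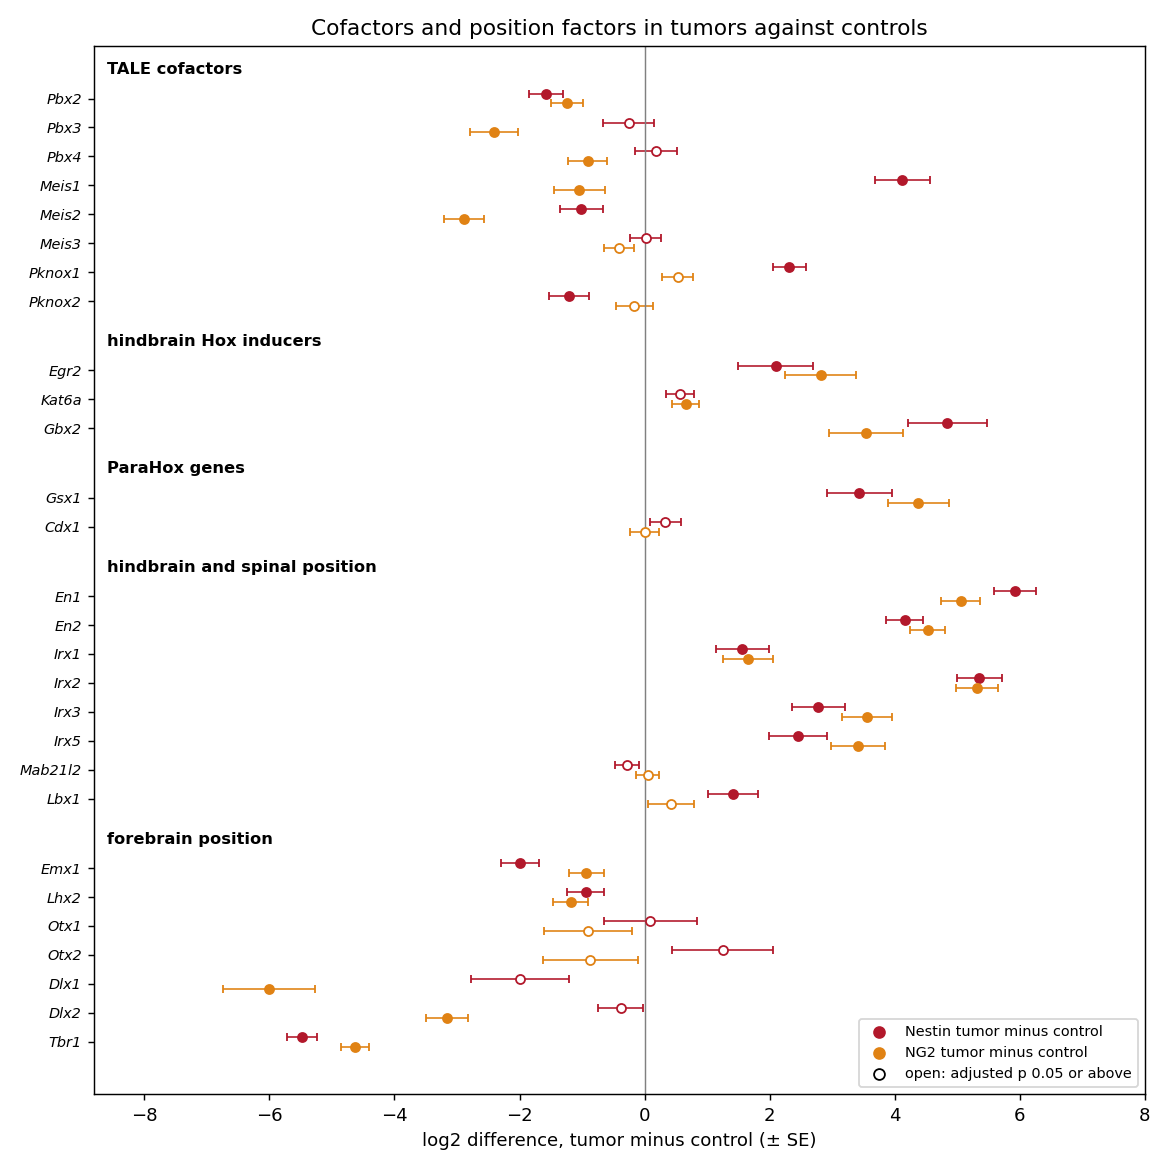
Log2 difference between tumors and controls (x axis, ± SE) for the tested genes of 5 lists (y axis), with Nestin in red and NG2 in orange and filled points at limma adjusted p below 0.05. Hindbrain and spinal factors stand to the right in both models except Mab21l2, at -0.28 and 0.05, no forebrain factor has a filled point to the right of 0 (Otx2 lies at 1.25 ± 0.81 in Nestin tumors), and Meis1 at 4.12 in Nestin and -1.04 in NG2 tumors.

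Genes of other cell types that use Hox genes were read on the same arrays, as the summed level of each marker list on the log2 scale. Such a sum follows its brightest probes, here Sox10 for neural crest and Slc17a6 for the neurons in controls, and is compared between arrays only within a list. Leukocyte markers summed to 7.42 to 7.78 in Nestin tumors and 7.37 to 7.50 in NG2 tumors, against 7.51 to 7.78 and 7.35 to 7.73 in controls, with 4 of 6 not detected in Nestin tumors and all 6 not detected in NG2 tumors. Fibroblast and meningeal markers were at 8.13 to 10.30 and 9.68 to 12.20 in tumors and at 9.98 to 11.17 and 11.30 to 11.89 in controls. Of the 5 tested, none rose, 2 fell in Nestin tumors and 1 fell in NG2 tumors, and with arrays scaled to their medians none was called in Nestin tumors and 1 was higher and 1 lower in NG2 tumors. Endothelial markers ranged from 11.61 to 12.33 on tumor arrays and from 11.66 to 11.92 on control arrays. Of the 5 tested, 1 rose and 1 fell in Nestin tumors, and 1 rose and 2 fell in NG2 tumors. With arrays scaled to their medians, 1 was higher and 1 lower in Nestin tumors, and 3 were higher and 1 lower in NG2 tumors. Neural crest markers were at 10.20 to 12.83 in Nestin tumors and 11.56 to 12.02 in their controls, and at 13.83 to 14.31 in NG2 tumors against 10.99 to 11.14. In NG2 tumors 2 of the 4 tested rose, Sox10 (2.98 ± 0.43, limma adjusted p = 6.62e-05), which oligodendrocyte precursors also use, and Tfap2a (1.47, adjusted p = 0.000316). Markers listed for spinal and brainstem neurons summed to 8.10 to 9.01 and 7.87 to 8.42 in tumors, against 10.76 to 10.99 and 11.63 to 11.72 in controls. Of the 7 on the array, 4 were not detected in each control group and 2 in each tumor group. The control sums thus follow Slc17a6 and do not show that such neurons were present. Of the 4 tested, 1 rose and 1 fell in Nestin tumors and none rose and 2 fell in NG2 tumors. Slc17a6, a glutamate transporter on this list, fell by 4.43 and fell by 5.67 (limma adjusted p = 1.21e-05 and 3.95e-07), and Chat, which makes acetylcholine, fell by 2.66 in NG2 tumors (adjusted p = 0.0122). Lbx1, of dorsal spinal neurons, was 1.42 higher in Nestin tumors (limma adjusted p = 0.00974, and 0.139 within slide 1). It was detected on no control array and passed the filter through tumor arrays alone, so it had to be higher there. Haematopoietic progenitor markers were at 9.42 to 11.22 and 10.61 to 11.27 in tumors and at 10.97 to 11.12 and 10.44 to 10.99 in controls. The part of these cell types in the Hox levels was not tested.

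The genes whose levels most resembled the mean log2 level of the 10 members, by Pearson correlation among genes past the filter, are given as a description. Over all 13 arrays they were En1 (0.987), Foxf1 (0.979), Cenpp (0.978), Itprip (0.977) and N4bp2 (0.976), a measure that mostly follows the division into tumor and control arrays. Over the 7 tumor arrays they were Ptpru (0.981), Tpbgl (0.979), Hgs (0.975), Fam110a (0.973) and Vax2 (0.972). The arrays share slides, and each correlation is across 7 or 13 arrays only.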

How the data were processed

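Total RNA of 13 tissue samples was hybridized to Illumina arrays, 1 array a sample. The authors deposited a non-normalized signal intensity per probe and a detection p-value per probe and array (per the file headers). The scanner software, and any background subtraction in it, are not stated there. The authors also deposited processed values, which behave as log2 values: over 38563 probes each column correlated with the same array normalized here at 0.999985 or higher, and column medians were 5.286 to 5.306, so scale and direction are settled and the authors' method is not stated.

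Intensities were background-corrected with limma 3.58.1 (neqc, offset 16, R 4.3.3), quantile normalized and put on the log2 scale. Probes with a detection p-value below 0.05 on at least 3 arrays were kept (23904), and those with a single gene symbol (18876) gave 11927 genes, each by its brightest probe. Of the symbols in the platform annotation, 32093 probes had 1, 16 had several and 13172 were unnamed here. A linear model with a mean per group was fitted over 13 arrays, with eBayes and an intensity trend (9 residual degrees of freedom, 4.67 prior), Benjamini-Hochberg adjustment and a threshold of 0.05. The number of arrays limits the precision. Controls are labelled as biological replicates and tumors as independent. Array identifiers gave 3 slides, and slide was tried as a block. The script was tested on simulated data.

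The rule for naming took the members, other Hox genes by detection, and the 5 most alike genes. From each list it took the called genes with the 4 largest changes, of which only a selection is printed. Genes named beyond this rule were chosen after their values were seen. The members and lists were chosen with earlier results of these data known. Alternatives were 2 background corrections, 2 normalizations, the authors' values, 3 probe filters, mean probes, no trend, slide and replicate blocks, single slides and leaving out each array, and for bounds the background correction and single arrays, added after the data were seen.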

Additional observations from a re-analysis of the deposited data

Results flagged for a closer look

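Among the 4 NG2 tumors, 3 of the 10 members had 1 array whose gap to the nearest of the others filled more of the group's range than the limit of Dixon's test allows, which flags about 1 group in 20 by chance. All 3 were values of NG2 tumor 1. Hoxa2 was at 5.16 there, with the nearest other tumor at 9.0 and a gap of 0.919 of the range. Hoxc9 was at 8.52, with the nearest at 4.54 and a gap of 0.983. Hoxd8 was at 8.51, with the nearest at 4.86 and a gap of 0.906. Groups of 3 arrays were not examined in this way.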

How the results depend on the processing

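Calls between tumors and controls stayed within 1.5 times of 5520 in the Nestin model and 6043 in the NG2 model under each alternative run, with 4658 to 5685 and 5122 to 6194 when 1 array was left out. Scaling to array medians moved the median of all genes to 0.451 and 0.467 and the share of calls that were higher from 52.6% to 72.9% and from 52.4% to 71.8%. The 1072 calls between Nestin and NG2 tumors fell to 0 in limma with slide as a block, with 1017 genes at an unadjusted p below 0.05 (3034 without the block); no slide holds tumors of both models. They were 705 with the replicate number as a block and 676 to 1254 with 1 array left out, lowest without Nestin tumor 3. The 414 calls between controls were 85 with slide as a block and 239 to 447 with 1 array left out, at 257 without Nestin control 2, 239 without Nestin control 3 and 240 without NG2 control 3. At a detection limit of 0.01, 1 member instead of 2 was detected on every Nestin control array and 1 instead of 2 on every NG2 control array. The cause of the changes without single arrays was not tested.

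Replicate numbers did not pair the samples: deviations of same-numbered tumors and controls correlated at -0.031 to 0.035 in the Nestin model and at -0.059 to -0.036 in the NG2 model. With the replicate block, calls between tumors and controls were 5550 and 5604, and 355 between controls. Of the member differences, 727 values moved by less than the spread between replicates and 35 by more. The latter were mostly smaller values without neqc's background step: Hoxa7 in Nestin tumors went from 6.21 to 4.85 with normexp and to 3.85 with no correction, and Hoxa2 from 4.63 to 3.34 and 2.42. Bounds for Hoxa2 and Hoxa4 in Nestin tumors went to 10.2-fold and 4.53-fold at the detection limit of 0.01. Bounds were also recomputed with other background steps and without each array, alternatives chosen after seeing the data. All bounds above 2-fold were smaller with either step. Without 1 array, Hoxa2 in NG2 tumors ran from 5.2-fold to 13.7-fold and Hoxc9 in Nestin tumors from 4.24-fold to 11.8-fold, and Hoxc9 and Hoxd8 in NG2 tumors had no bound above 1 without NG2 tumor 1. Of the values of the called genes with up to 4 largest changes in each list, 1843 kept their side of the threshold and 77 lost the call. None of these changed direction, and beyond them 1 called Trithorax gene did so in NG2 tumors with arrays scaled to their medians.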
